A study of Homo sapiens with 8 samples.

Results

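Messenger RNA levels of 34 DNA replication and E2F target genes were followed in human leukemia cells in which SIRT1 was knocked down. The genes were chosen by symbol and role from the 18133 rows of the deposited table, with no threshold on their values: 9 genes of origin licensing, 4 of helicase activation, 9 of fork synthesis, 4 of nucleotide supply, 5 E2F factors and E-type cyclins, and 3 genes of replicated chromatin. All 34 were found and all 34 passed the filter on low values. The genes were chosen with earlier results of these data known. The cells were DND41, an established line of T-cell acute lymphoblastic leukemia (T-ALL), and every culture, controls included, received doxycycline for 72 h to switch on a short hairpin RNA. SIRT1 was targeted by 2 hairpins, named sh1 and sh3 in the labels. Each had libraries A, B and C, so 3 per hairpin, and the control hairpin had 2, A and C. A control lettered B was not analysed here. The sources used here do not give the hairpin sequences, the vector and its promoter, or whether a line was 1 clone. The cultures were plated in triplicate and nothing states separate infections, so that the p-values rest on a spread between cultures that may be technical.

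SIRT1 is a nuclear deacetylase that depends on NAD. Before S phase the origin recognition complex, CDC6 and CDT1 load the MCM helicase ring onto DNA, a step called licensing. CDC45 and the GINS complex then turn the ring into an active helicase, and polymerases, the PCNA clamp and its loader copy the strands with nucleotides made by ribonucleotide reductase and thymidylate synthase. Most of these genes are transcribed around S phase entry by activating E2F factors once RB proteins are phosphorylated, in part by cyclin E with CDK2, and E2F7 and E2F8 repress the same targets later in S phase. In bulk RNA, fewer cells in a phase of the cycle and less RNA per cell cannot be told apart.

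RefSeq promoter windows on GRCh38.p14, from 250 bases before to 50 bases after the gene start, were matched by symbol for 30 of the 34 genes. MCM4, MCM5, E2F8 and CCNE2 had no matched window. The first 2 promoters printed here belong to the genes that were higher in SIRT1 knockdown and hold letters of the E2F consensus. The promoters of MCM6, with the most E2F matches, and of RRM2, higher in knockdown with no E2F match, were added after values were seen. Each is written 5′ to 3′ on the strand of its gene. Capitals mark the E2F letters in CDC6 (chr17:40287629-40287928, plus strand), CDT1 (chr16:88803539-88803838, plus strand) and MCM6 (chr2:135876394-135876693, minus strand). In RRM2 (chr2:10122489-10122788, plus strand) they mark the CCAAT box. GENCODE places the starts of CDC6, CDT1 and RRM2 upstream of the RefSeq starts used here. Windows not printed can differ too, and for UHRF1, GINS2, CDC45, MCM7 and RFC4 the GENCODE start lies upstream of the whole window. The counts of matches hold for the RefSeq windows only.
CDC6: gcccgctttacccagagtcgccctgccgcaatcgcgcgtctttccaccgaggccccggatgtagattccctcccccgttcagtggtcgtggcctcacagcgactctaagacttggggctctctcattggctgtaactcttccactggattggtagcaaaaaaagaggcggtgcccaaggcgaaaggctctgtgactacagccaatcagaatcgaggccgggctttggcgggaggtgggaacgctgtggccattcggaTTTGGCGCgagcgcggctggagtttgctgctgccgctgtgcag
CDT1: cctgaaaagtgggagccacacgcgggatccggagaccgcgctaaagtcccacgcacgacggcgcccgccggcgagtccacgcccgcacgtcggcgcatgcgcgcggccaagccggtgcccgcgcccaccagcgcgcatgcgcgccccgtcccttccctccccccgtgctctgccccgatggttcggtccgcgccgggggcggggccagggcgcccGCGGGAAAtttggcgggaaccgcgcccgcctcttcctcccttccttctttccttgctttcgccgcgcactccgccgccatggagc
MCM6: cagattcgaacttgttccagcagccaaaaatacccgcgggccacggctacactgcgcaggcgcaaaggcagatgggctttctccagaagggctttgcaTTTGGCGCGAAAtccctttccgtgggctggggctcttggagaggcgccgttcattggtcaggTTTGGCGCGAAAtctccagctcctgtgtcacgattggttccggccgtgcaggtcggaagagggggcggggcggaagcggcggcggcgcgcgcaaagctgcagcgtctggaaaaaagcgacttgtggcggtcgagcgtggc
RRM2: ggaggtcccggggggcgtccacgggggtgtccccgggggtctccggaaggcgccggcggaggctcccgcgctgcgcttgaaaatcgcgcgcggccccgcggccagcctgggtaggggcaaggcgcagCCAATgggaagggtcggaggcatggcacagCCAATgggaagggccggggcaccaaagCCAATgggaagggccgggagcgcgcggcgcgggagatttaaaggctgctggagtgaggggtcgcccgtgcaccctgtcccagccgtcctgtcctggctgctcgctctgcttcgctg

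The E2F letters searched on both strands were TTTCCCGC, TTTCGCGC, TTTGCCGC and TTTGGCGC, which can overlap one another, and the second motif was CCAAT on both strands. In MCM6 the 4 E2F matches overlap in pairs at 2 places, so that each place reads on both strands. An E2F match stood in 17 of the 30 member windows (56.7%), against 15 of 66 windows of the other replication genes (22.7%), 5.42% of windows of genes tested and 3.31% of all 35116 promoter windows. CCAAT stood in 18 of the 30 member windows (60.0%), against 33 of 66 windows of the other replication genes, 36.9% of windows of genes tested and 34.6% of all windows. The match is a description of letters, and its absence says only that these letters are not in the window.

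**Figure D1:**
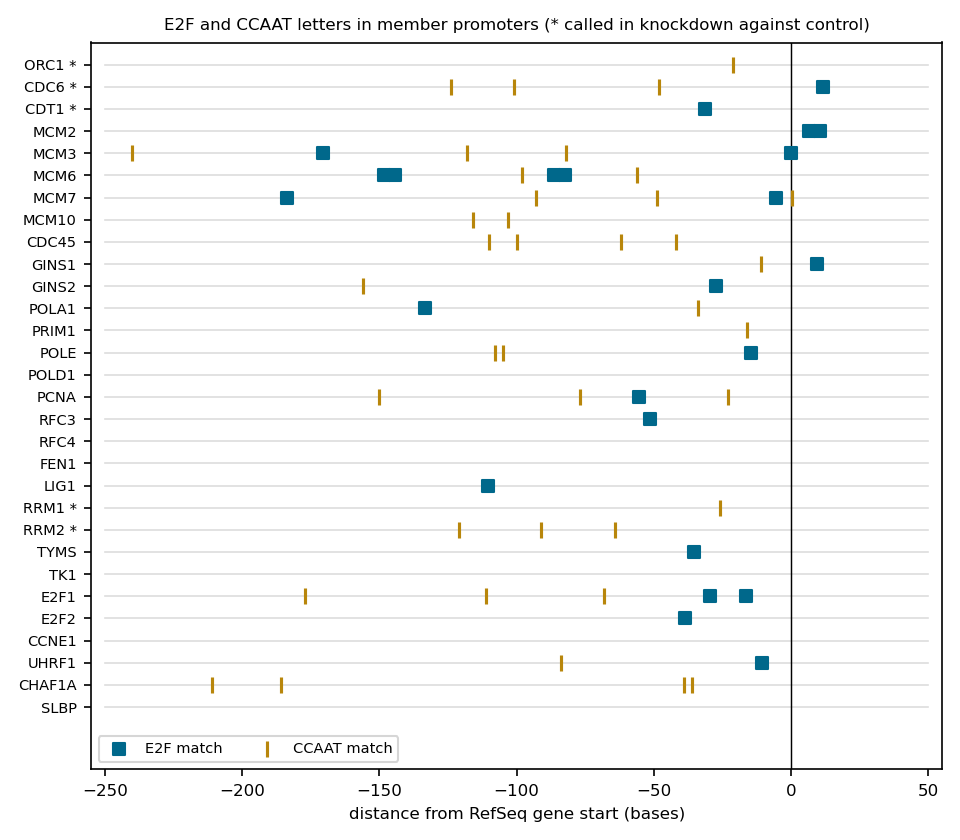
Positions of E2F matches (squares) and CCAAT matches (bars) in the promoter windows of 30 genes, by distance in bases from the RefSeq gene start, with an asterisk on genes that were higher in SIRT1 knockdown. E2F matches stand in 17 of the windows. RRM1, RRM2 and ORC1, and also MCM10, CDC45, PRIM1 and CHAF1A without an asterisk, hold CCAAT matches without one.

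SIRT1 itself (chr10:67884669-67918390 on GRCh38) had 1259, 1312 and 1329 normalized counts in sh1 libraries A, B and C and 1099, 1217 and 1179 in sh3, against 1745 and 1920 in control libraries A and C. All 6 knockdown libraries lay below both controls, with a log2 change of −0.49 ± 0.070 (SE) in sh1 and −0.65 ± 0.070 in sh3 (limma adjusted p = 0.0029 and 0.00014). The sum of normalized counts ranged over the libraries between 33087820 and 34072666. The labels of sh3 C disagree, with a SIRT1 title and genotype but a description that names the control hairpin. It was kept in sh3, and its Spearman coefficient across genes was at least 0.9955 with the other sh3 libraries and at most 0.9925 with controls. Of the 5 T cell markers, 4 (CD3D, CD3E, CD7 and LCK) were found, and their summed level was 46187 to 49133 in sh1 and 41116 to 41653 in sh3, against 57825 to 61334 in controls. The 4 myeloid markers summed to 5.27 to 29.6 in sh1 and 15.1 to 16.5 in sh3, against 25.5 to 32.99 in controls. The 4 markers of adherent cells summed to 45.6 to 59.5 in sh1 and 57.0 to 72.4 in sh3, against 41.1 to 48.7 in controls. Of the B cell markers, CD79A was at 17609, 18290 and 19281 in sh1 and 24766, 23398 and 23365 in sh3, against 23989 and 25708 in controls. PAX5 was near the floor in every group. It ranged from 0 (B) to 5.10 (A) in sh1 and from 0 (A) to 5.49 (B) in sh3, against 1.34 and 1.32 in controls. The part of these shifts in the results on replication genes was not tested.

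Against control, 6 of the 34 genes were higher in SIRT1 knockdown (17.6%) and 0 were lower at an adjusted p under 0.05, when sh1 and sh3 were averaged (limma). The 6 were E2F8, RRM2, ORC1, RRM1, CDC6 and CDT1, with log2 changes of 0.16 to 0.48. At an unadjusted p under 0.05 in limma the counts were 11 higher and 0 lower, against 2004 and 1971 of all 13885 genes tested. At the adjusted threshold, 6.55% of all genes tested were called higher and 6.19% lower in that comparison. Among the 8899 genes at least as abundant as the lowest of the 34, a set chosen after seeing the data, 9.15% were called higher and 7.42% lower. That floor was set by CCNE1, at a mean of 418, and the next lowest member, CCNE2, was at 1986. The set therefore reaches well below the other members and does not match their abundance. The median log2 change of the 34 genes was 0.057, against −0.0022 over all genes tested, and 25 of 34 were above 0, against 49.5% of all genes. Without sh3 C the counts were again 6 and 0.

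By hairpin, 3 of 34 were called higher in sh1 than in control (E2F8, RRM2 and ORC1) and 0 lower. Of all genes tested, 2.88% were called higher and 3.43% lower in sh1. Among the 8899 more abundant genes these shares were 4.03% and 3.94%. At an unadjusted p under 0.05 in limma, 7 of 34 were higher and 0 lower in sh1, against 1560 and 1540 of all 13885 genes. In sh3, 9 were called higher than in control and 2 lower, where 9.36% of all genes were called higher and 9.19% lower. Those 9 were E2F8, ORC1, RRM2, CDT1, CDC6, RRM1, E2F1, PRIM1 and MCM10, and the 2 lower were CCNE1 and UHRF1. Without sh3 C the counts in sh3 were 9 and 1, with UHRF1 lost. The 2 hairpins share the control libraries, so these counts are not independent of each other. All 6 knockdown libraries lay above both controls in 6 of the 34 genes (17.6%) and below both in 0. Over all genes tested these shares were 11.9% above and 11.4% below, and 15.4% above among the 8899 more abundant genes. Together the 34 genes took 0.849% to 0.864% of the normalized counts in sh1 libraries and 0.863% to 0.871% in sh3 libraries, against 0.806% and 0.817% in the controls. The most abundant genes, such as MCM7 and TYMS, weigh most in this sum, so it does not describe a shift of each gene.

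**Figure D2:**
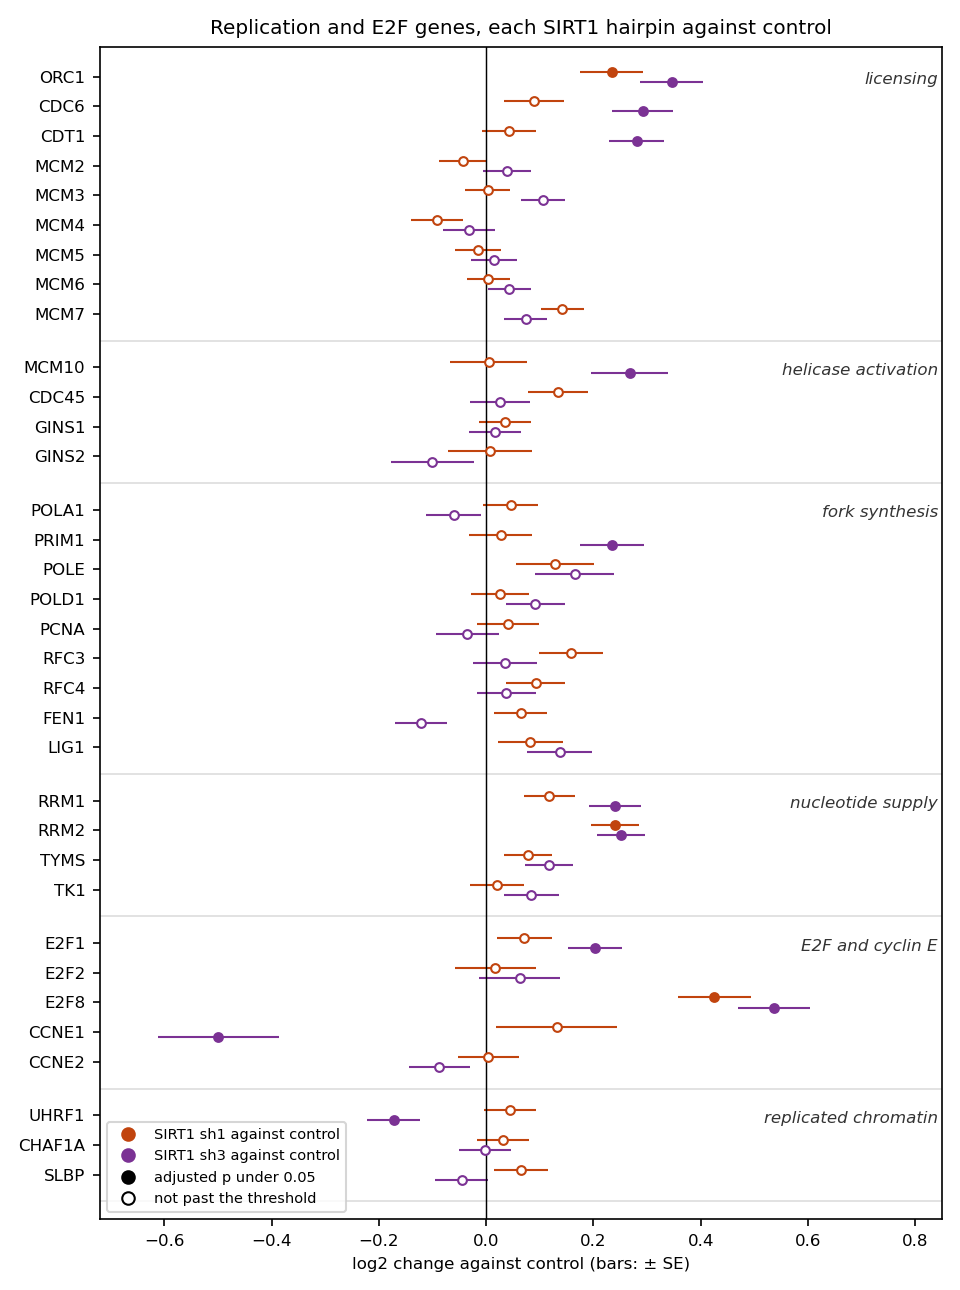
Log2 change of each of the 34 genes against control for sh1 and sh3, with bars for the SE, grouped by role. Filled points passed an adjusted p of 0.05. E2F8, ORC1 and RRM2 are filled for both hairpins, CCNE1 and UHRF1 are filled below 0 for sh3, and no point of MCM2 to MCM7 is filled.

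Of the licensing genes, 3 of 9 were called higher in knockdown, the loading factors ORC1, CDC6 and CDT1. Over all genes tested the share called higher was 6.55%, and no test was made between roles, which hold few genes each. The 6 subunits of the ring were not called on the deposited scale, but after quantile normalization MCM3 and MCM7 were, and CDC6 and CDT1 lost their call when the 6 knockdown libraries formed 1 group. ORC1 (chr1:52372829-52404459), the largest subunit of the origin recognition complex, had 2273, 2123 and 2102 normalized counts in sh1 and 2385, 2392 and 2246 in sh3, against 1820 and 1861 in control. All 6 knockdown libraries lay above both controls. It was 1.22-fold higher in knockdown, a log2 change of 0.29 ± 0.053 (SE; adjusted p = 0.0056), and 1.18-fold in sh1 and 1.27-fold in sh3. Without control C the knockdown call was lost (0.31, adjusted p = 0.058). The sh1 call was lost without either control, without any 1 of the 3 sh1 libraries and without sh3 A or sh3 B, at adjusted p from 0.05035 to 0.16. It was also lost when the variance prior did not follow the mean, that is without the variance trend (adjusted p = 0.10).

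CDC6 (chr17:40287633-40304657), the ATPase that joins the origin complex to load the ring, had 3633, 3878 and 3568 normalized counts in sh1 and 4222, 4288 and 4233 in sh3, against 3320 and 3627 in control. The sh3 libraries were above both controls, and sh1 overlapped them. Its log2 change in knockdown was 0.19 ± 0.050 (adjusted p = 0.031), made up of 0.089 ± 0.056 in sh1 (adjusted p = 0.39) and 0.29 ± 0.056 in sh3 (adjusted p = 0.0051). The knockdown call was lost without sh1 B (adjusted p = 0.059), sh3 A (0.058), sh3 B (0.063) or control C (0.067), and without control A the change was 0.13 (adjusted p = 0.25). It was also lost with the knockdown libraries as 1 group (adjusted p = 0.22) and without the variance trend (0.092).

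CDT1 (chr16:88803213-88809258), the other loading factor, which geminin holds inactive after licensing, had 7150, 6772 and 7184 normalized counts in sh1 and 8402, 8598 and 7894 in sh3, against 6867 and 6787 in control. Again sh3 stood above both controls while sh1 overlapped them. The log2 change in knockdown was 0.16 ± 0.045 (adjusted p = 0.039), with 0.043 ± 0.051 in sh1 and 0.28 ± 0.051 in sh3. The knockdown call was lost without control A (adjusted p = 0.13), control C (0.23), sh1 C (0.054), sh3 A (0.081) or sh3 B (0.082). With the knockdown libraries as 1 group its adjusted p was 0.32, and without the variance trend 0.11.

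MCM2 to MCM7 form the ring that becomes the core of the replicative helicase. Their log2 changes in knockdown lay between −0.062 ± 0.044 for MCM4 and 0.11 ± 0.036 for MCM7, and on the deposited scale 0 of 6 passed the threshold in knockdown, in either hairpin or between the hairpins. At an unadjusted p under 0.05 in limma, 1 of 6 passed in each of these comparisons, MCM7 in knockdown and in sh1, and MCM3 in sh3 and between the hairpins. Of all 13885 genes tested, 2004 were higher and 1971 lower at that threshold in knockdown, 1560 and 1540 in sh1, 2266 and 2239 in sh3. Between the hairpins the counts were 1780 and 1834. The MCM subunits depend on the scaling. After quantile normalization MCM7 was called in knockdown (0.19, adjusted p = 0.0067), in sh1 (0.24, 0.0085) and in sh3 (0.15, 0.025), and median scaling also gave a call in sh1 (0.15, 0.047). MCM3 was called after quantile normalization in knockdown (0.14, adjusted p = 0.029), in sh3 (0.21, 0.0059) and as lower in sh1 than in sh3 (−0.13, 0.041), and MCM6 in sh3 (0.15, 0.032). The knockdown change of MCM4 was then 0.0062, not called and of the other sign. On the deposited scale, MCM7 had 30200, 30604 and 30497 normalized counts in sh1 and 29439, 29072 and 28554 in sh3, against 27951 and 27209 in control. These groups did not overlap, and its adjusted p was 0.068. For MCM2, MCM5 and MCM6 the 95% intervals of the log2 change in knockdown were −0.090 to 0.086, −0.084 to 0.083 and −0.056 to 0.10. MCM6, with the 4 E2F matches shown above, had 19002, 18905 and 19005 normalized counts in sh1 and 20022, 19203 and 19263 in sh3, against 18899 and 18942 in control.

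Of the helicase activation genes 0 of 4 were called in knockdown by limma, and 0 at an unadjusted p under 0.05. Of all 13885 genes tested, 6.55% were called higher and 6.19% lower, and 2004 were higher and 1971 lower at the unadjusted threshold. MCM10, which helps the loaded helicase to unwind, had 3948, 3822 and 3479 normalized counts in sh1 and 4595, 4766 and 4141 in sh3, against 3839 and 3627 in control. The sh3 libraries lay above both controls and sh1 overlapped them. It was called in sh3 (log2 change 0.27 ± 0.072, adjusted p = 0.025) with 0.0050 ± 0.072 in sh1, and the sh3 call was lost without control A (adjusted p = 0.054), control C (0.18), sh3 A (0.080), sh3 B (0.088) or the variance trend (0.093). CDC45 and the GINS subunits GINS1 and GINS2, which complete the helicase, had log2 changes in knockdown of 0.080 ± 0.050, 0.026 ± 0.044 and −0.047 ± 0.069.

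The 9 genes of fork synthesis also gave 0 calls in knockdown by limma, where 6.55% of all genes tested were called higher and 6.19% lower. At an unadjusted p under 0.05, 2 were higher and 0 lower, against 2004 and 1971 of all 13885 genes. PRIM1 (chr12:56731596-56752373), the catalytic subunit of primase, had 1868, 2034 and 1937 normalized counts in sh1 and 2247, 2282 and 2211 in sh3, against 1971 and 1849 in control. Only the sh3 libraries were clear of the controls, with a log2 change of 0.23 ± 0.059 (adjusted p = 0.019) that was not called without sh3 A (adjusted p = 0.056), sh3 B (0.065) or control C (0.16). The other catalytic subunits, POLA1 of the priming polymerase, POLE of the leading strand and POLD1 of the lagging strand, had log2 changes in knockdown of −0.0074 ± 0.046, 0.15 ± 0.065 and 0.059 ± 0.049. PCNA, the sliding clamp, had 21248, 23954 and 24270 normalized counts in sh1 and 22460, 21183 and 22186 in sh3, against 22327 and 22614 in control. Its groups overlapped, and the log2 change in knockdown was 0.0031 with a 95% interval from −0.11 to 0.12. The clamp loader subunits RFC3 and RFC4 were at 0.097 ± 0.053 and 0.065 ± 0.049, and LIG1, which joins Okazaki fragments, was at 0.11 ± 0.055. In LIG1 the 2 controls differed from each other by more than that, at 6869 and 5987 normalized counts, and without control A LIG1 was called in sh3 (0.24, adjusted p = 0.035).

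In nucleotide supply, 2 of 4 genes were higher in knockdown, both of them subunits of ribonucleotide reductase, where 6.55% of all genes tested were. In a further list of nucleotide supply genes, 1 of 12 was higher. RRM2 (chr2:10120698-10131419), the small subunit that limits its activity in the cycle, had 14733, 13956 and 14268 normalized counts in sh1 and 14458, 14473 and 14357 in sh3, against 11782 and 12468 in control. Every knockdown library lay above both controls. The log2 change was 0.25 ± 0.040 in knockdown (adjusted p = 0.0032), 0.24 ± 0.044 in sh1 (adjusted p = 0.012) and 0.25 ± 0.044 in sh3 (adjusted p = 0.0032), a 1.19-fold higher level. The sh1 call was lost without control A (0.20, adjusted p = 0.086) and without the variance trend (adjusted p = 0.076), and the other 2 were kept in every alternative tried.

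RRM1 (chr11:4094707-4138876), the large subunit of the same enzyme, had 9952, 9886 and 9771 normalized counts in sh1 and 11209, 10423 and 10609 in sh3, against 9359 and 8834 in control. The groups did not overlap, and the log2 change was 0.18 ± 0.043 in knockdown (adjusted p = 0.020), 0.12 ± 0.048 in sh1 (adjusted p = 0.17) and 0.24 ± 0.048 in sh3 (adjusted p = 0.0058). Without control C it was 0.14 in knockdown (adjusted p = 0.22) and 0.20 in sh3 (adjusted p = 0.075). The knockdown call was also lost without the variance trend (adjusted p = 0.081) and with the knockdown libraries as 1 group (0.13). Thymidylate synthase, TYMS, and thymidine kinase, TK1, did not pass, at 0.098 ± 0.040 and 0.052 ± 0.045. TYMS was above both controls in all 6 knockdown libraries, with 21943, 22929 and 23707 normalized counts in sh1 and 23859, 23497 and 23075 in sh3, against 21478 and 21800 in control. After quantile normalization TYMS was called in knockdown (0.19, adjusted p = 0.0051), in sh1 (0.15, 0.034) and in sh3 (0.22, 0.0024), and without sh1 A it was called in sh3 (0.12, 0.047).

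E2F8 (chr11:19224063-19241620), a repressor of E2F targets, had 2146, 2098 and 1945 normalized counts in sh1 and 2119, 2384 and 2185 in sh3, against 1531 and 1537 in control. The lowest knockdown library stood well above the higher control. Its log2 change was 0.48 ± 0.060 in knockdown (1.40-fold, adjusted p = 0.00071), 0.43 ± 0.068 in sh1 (1.34-fold, adjusted p = 0.0053) and 0.54 ± 0.068 in sh3 (1.45-fold, adjusted p = 0.00039). The knockdown and sh3 calls were kept in every alternative tried, and without control C the sh1 call was lost (0.43, adjusted p = 0.051). E2F1, an activating E2F, had 5926, 6082 and 5572 normalized counts in sh1 and 6328, 6440 and 6486 in sh3, against 5702 and 5447 in control. It was called in sh3 (0.20 ± 0.051, adjusted p = 0.018), not in sh1 (0.071 ± 0.051) or in knockdown (0.14 ± 0.045, adjusted p = 0.068). The sh3 call was lost without sh3 B (adjusted p = 0.057), control C (0.17, adjusted p = 0.15) or the variance trend (adjusted p = 0.065), and without sh1 C E2F1 was called in knockdown (0.16, adjusted p = 0.035). E2F2, another activator, was at 0.040 ± 0.068 in knockdown.

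CCNE1 (chr19:29811898-29824308), a cyclin E that partners CDK2 at S phase entry, had 489, 478 and 513 normalized counts in sh1 and 303, 352 and 301 in sh3, against 411 and 493 in control. The sh3 libraries were below both controls and sh1 overlapped them. In sh3 the log2 change was −0.50 ± 0.11 (0.71-fold, adjusted p = 0.011), and without control C it was −0.37 (adjusted p = 0.14). In sh1 it was 0.13 ± 0.11 (adjusted p = 0.54). CCNE2, the other cyclin E, was at −0.087 ± 0.057 in sh3 and 0.0041 ± 0.057 in sh1.

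Of the genes of replicated chromatin, UHRF1 (chr19:4903080-4962154), which brings maintenance methylation to newly copied DNA, had 11109, 10416 and 10110 normalized counts in sh1 and 8853, 9192 and 9149 in sh3, against 10202 and 10226 in control. In sh3 it lay below both controls, with a log2 change of −0.17 ± 0.049 (adjusted p = 0.032). That call was lost without any 1 of sh1 B, the 3 sh3 libraries, control A or control C, at adjusted p from 0.051 to 0.15, among them 0.054 without sh3 C. It was also lost after quantile normalization (adjusted p = 0.082) and without the variance trend (0.098). CHAF1A, a subunit of the assembly factor that places histones behind the fork, and SLBP, which binds the stem-loop of histone messages, were at 0.015 ± 0.043 and 0.0099 ± 0.045 in knockdown.

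**Figure D3:**
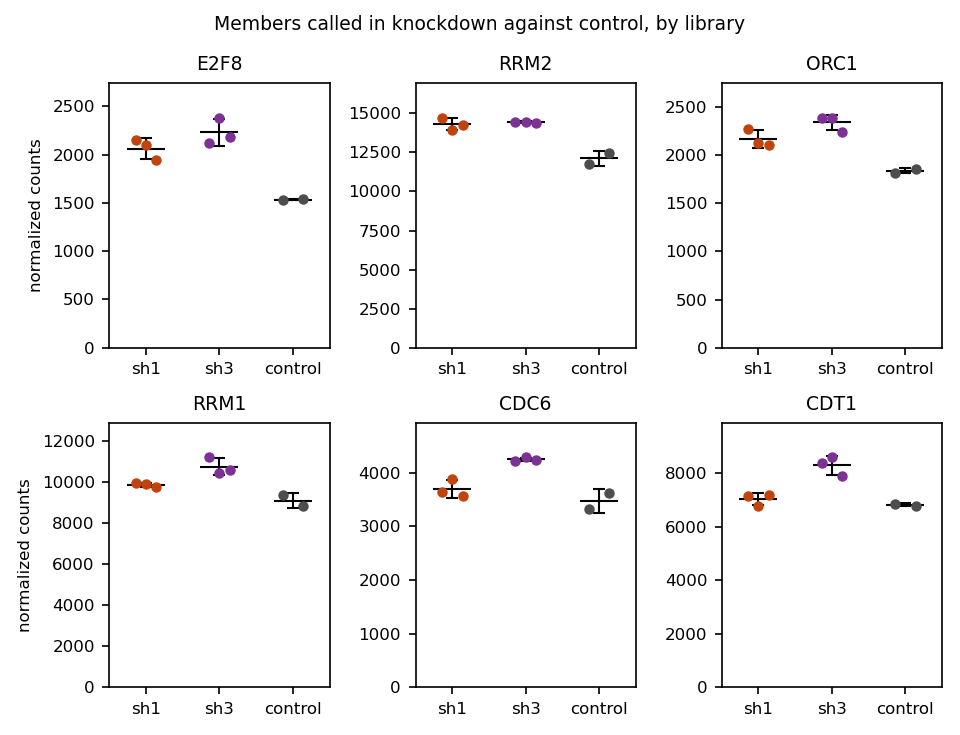
Normalized counts per library of the 6 genes called in SIRT1 knockdown against control, for sh1, sh3 and control, with bars for the mean and SD (axes start at 0). All 6 knockdown libraries lie above both controls in E2F8, RRM2, ORC1 and RRM1, while sh1 overlaps the controls in CDC6 and CDT1.

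Tested directly, 7 of the 34 genes differed between the hairpins. CCNE1, UHRF1 and FEN1 were higher in sh1 than in sh3, and CDT1, MCM10, CDC6 and PRIM1 were lower. Of all genes tested, 5.61% were called higher and 5.83% lower in this comparison, so the 3 and 4 of 34 (8.82% and 11.8%) stand against those shares. Among the 8899 genes at least as abundant as the lowest of the 34, the shares were 6.79% and 7.32%. The log2 difference, sh1 minus sh3, was 0.63 ± 0.10 for CCNE1 (adjusted p = 0.0020), 0.22 ± 0.044 for UHRF1 (0.0085) and 0.19 ± 0.044 for FEN1 (0.018). It was −0.24 ± 0.045 for CDT1 (0.0062), −0.26 ± 0.064 for MCM10 (0.021), −0.20 ± 0.050 for CDC6 (0.024) and −0.21 ± 0.053 for PRIM1 (0.026). FEN1, the nuclease that trims the flaps of Okazaki fragments, had 5753, 5995 and 6005 normalized counts in sh1 and 5017, 5284 and 5308 in sh3, against 5534 and 5785 in control. The controls overlapped sh1 and lay above sh3. It was not called against control in sh1 (0.064 ± 0.049) or in sh3 (−0.12 ± 0.049, adjusted p = 0.11).

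For SIRT1 itself every sh1 library lay above every sh3 library, at a log2 difference, sh1 minus sh3, of 0.16 ± 0.063 that missed the threshold (adjusted p = 0.14). CCNE1, CDT1 and UHRF1 kept their call between the hairpins without any 1 library. CDC6 lost it without sh1 C or any 1 of the 3 sh3 libraries, MCM10 without sh1 B, sh1 C, sh3 A or sh3 B, and FEN1 without those same 4. PRIM1 lost it without sh1 A, sh1 C or any 1 of the sh3 libraries. Without the variance trend UHRF1 (adjusted p = 0.053), FEN1 (0.067), MCM10 (0.094), CDC6 (0.079) and PRIM1 (0.065) lost it too, and without sh1 A PCNA was called higher in sh1 (0.14, adjusted p = 0.045). Without sh3 C, 3 were higher and 2 lower in sh1 than in sh3. For E2F8 and RRM2 the 95% intervals of the log2 difference were −0.24 to 0.021 and −0.098 to 0.076.

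**Figure D4:**
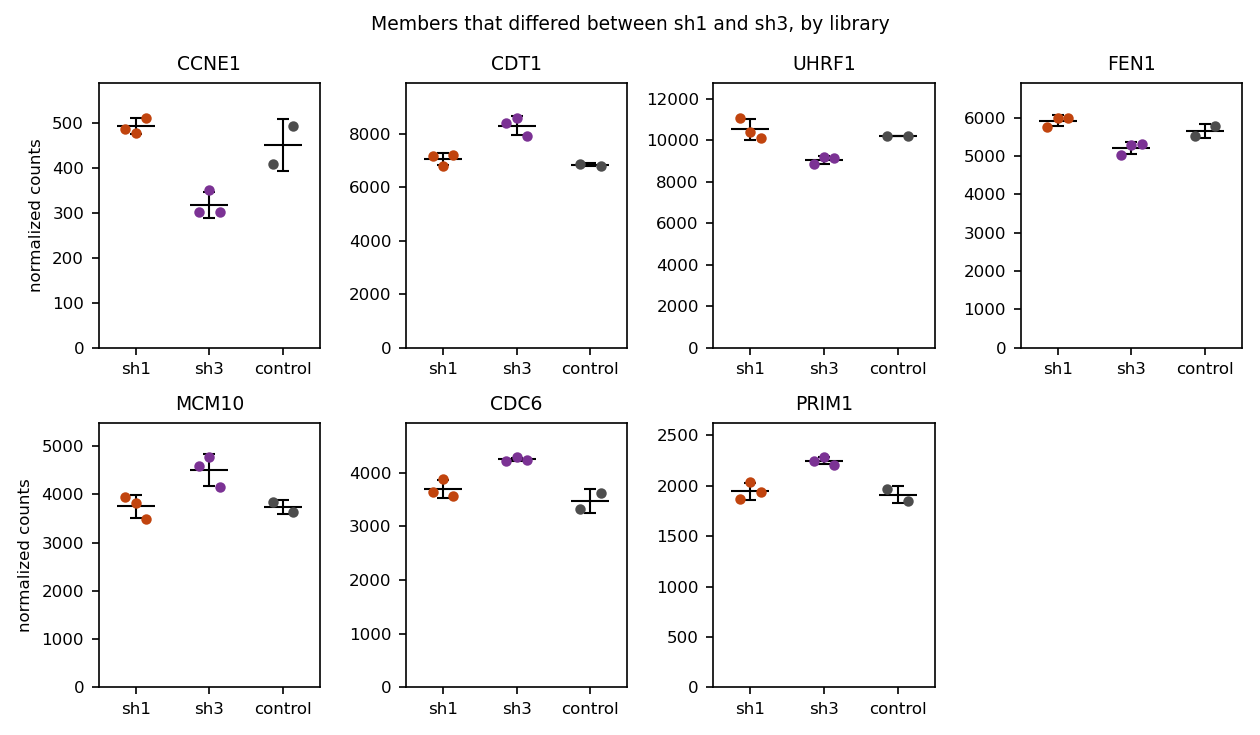
Normalized counts per library of the 7 genes that differed between sh1 and sh3, with controls for comparison and bars for the mean and SD (axes start at 0). CCNE1, UHRF1 and FEN1 are lower in all sh3 than in all sh1 libraries, and CDT1, MCM10, CDC6 and PRIM1 are higher in all sh3 libraries.

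Levels can be compared between genes only per length, here as normalized counts per kilobase of the principal GENCODE transcript, whose fit to the authors' annotation is unknown. PCNA was at 17040 per kilobase in sh1 and 16146 in sh3, against 16535 in control. TYMS followed at 13754 in sh1 and 14126 in sh3, against 13020 in control. MCM7, at 10292 in sh1 and 9814 in sh3, against 9327 in control, stood above the other subunits of the ring in every group. MCM3 was at 5738 in sh1 and 6167 in sh3, against 5727 in control, and the lowest 3 subunits, MCM2, MCM4 and MCM5, lay between 3252 and 3926 in all groups. The genes called in knockdown ran from E2F8, at 586 in sh1 and 634 in sh3, against 436 in control, to RRM2 at 4173 in sh1 and 4206 in sh3, against 3534 in control. CCNE1 was lowest of the 34 in every group, at 241 in sh1 and 156 in sh3, against 221 in control.

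**Figure D5:**
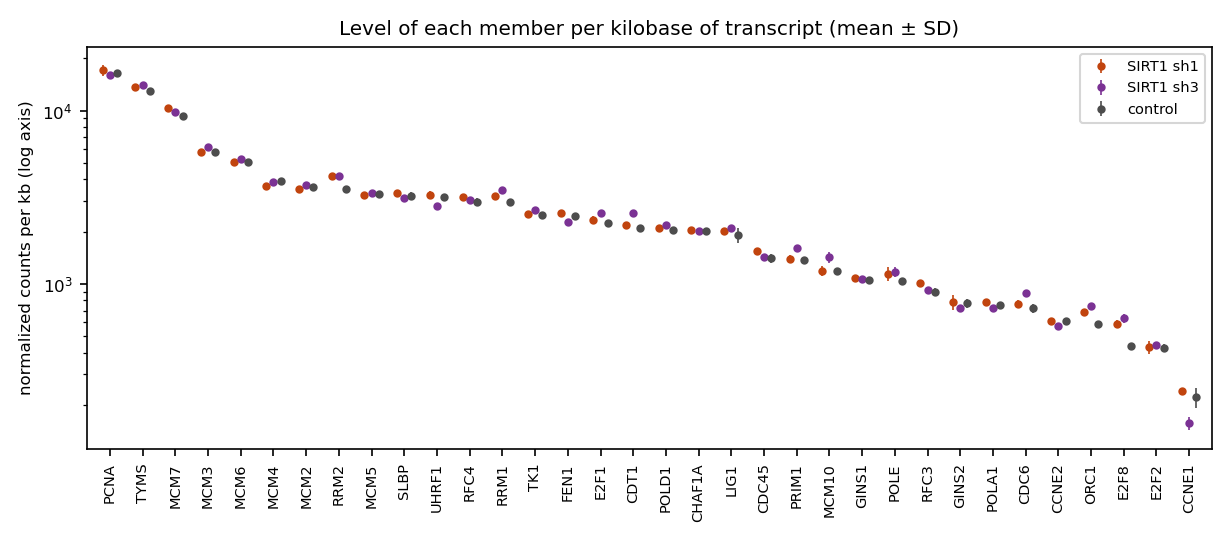
Mean level of each gene per kilobase of transcript (log axis) in sh1, sh3 and control, with bars for the SD, ordered by level in control. PCNA, TYMS and MCM7 stand highest and CCNE1 lowest.

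Set beside the promoter letters, 2 of the 17 genes with an E2F match were higher in knockdown (CDC6 and CDT1), with a median log2 change of 0.055. Of the 13 genes with a window and no match, 3 were higher (RRM2, ORC1 and RRM1), with a median of 0.065. In sh1, 0 of the 17 with a match and 2 of the 13 without one were higher, and in sh3 3 of 17 and 5 of 13. Called lower were 0 of both sets in sh1, and 1 of 17 and 1 of 13 in sh3. Over the genes tested that have a window, 9.74% of the 544 with a match and 7.06% of the 9490 without one were called higher in knockdown. Their medians were 0.033 and 0.00091, and 4.23% and 6.36% were called lower. In sh1, 3.86% and 3.18% of these genes were called higher, and in sh3 11.9% and 10.1%. The shares called lower were 1.47% and 3.47% in sh1, and 7.90% and 9.52% in sh3. No test was made between these shares.

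A further 80 replication genes were listed by role, with earlier results of these data known, so their shares are no independent support. In knockdown 16 were higher (20.0%) and 1 lower (1.25%), where 6.55% and 6.19% of all genes tested were. In sh1, 12 were higher and 1 lower, where 2.88% and 3.43% of all genes were. In sh3, 15 were higher and 5 lower, where 9.36% and 9.19% were. In sh1 against sh3, 6 were higher and 2 lower, where 5.61% and 5.83% were. All 6 knockdown libraries lay above both controls in 20 of the 80 (25.0%) and below both in 6 (7.5%). Over all genes tested these shares were 11.9% and 11.4%. Of licensing and firing, 4 of 20 were higher and 0 lower in knockdown, and 4 were higher and 1 lower in sh3. CDC7, the kinase that starts origin firing, led with 6186, 6224 and 5969 normalized counts in sh1 and 6744, 7108 and 6269 in sh3, against 5082 and 5000 in control. Its log2 change was 0.35 ± 0.050 (adjusted p = 0.0017). ORC6, the smallest origin complex subunit, was at 0.25 ± 0.049 and MTBP, a firing factor, at 0.31 ± 0.074. Of fork synthesis, 6 of 21 were higher and 0 lower in knockdown. They were led by POLD3, a subunit of the lagging strand polymerase, at 0.33 ± 0.050, and ATAD5, which helps take PCNA off DNA, at 0.34 ± 0.066. Next was POLE2, a subunit of the leading strand polymerase, at 0.32 ± 0.076.

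Of the other nucleotide supply genes 1 of 12 was higher in knockdown, the deoxycytidine kinase DCK at 0.34 ± 0.058. Of all genes tested, 6.55% were called higher and 6.19% lower in knockdown. Of the E2F, RB and cell cycle entry list 5 of 20 were higher in knockdown, among them LIN52 of the MuvB complex at 0.43 ± 0.073, CDK2 at 0.21 ± 0.040 and FBXO5, an inhibitor of the anaphase-promoting complex, at 0.24 ± 0.052. In sh3, 4 of these 20 were higher and 2 lower, where 9.36% and 9.19% of all genes tested were. E2F5, a repressor E2F, was the 1 gene called lower in knockdown (−0.22 ± 0.064, limma adjusted p = 0.044). It had 1032, 1114 and 1093 normalized counts in sh1 and 1212, 1151 and 1121 in sh3, against 1245 and 1370 in control. Of the other chromatin genes 0 of 7 were called in knockdown by limma. At an unadjusted p under 0.05, 1 was higher and 1 lower, against 2004 and 1971 of all 13885 genes tested. CDC7, POLD3 and DCK kept their call in every alternative tried. Without control C the calls of ORC6 (adjusted p = 0.12), MTBP (0.21), POLE2 (0.17), ATAD5 (0.15), LIN52 (0.084), CDK2 (0.11) and E2F5 (0.37) were lost, and without control A those of MTBP (0.053), POLE2 (0.076), FBXO5 (0.15) and E2F5 (0.063). The E2F5 call was also lost without any other single library, at adjusted p from 0.052 to 0.079, and with no filter on low values (0.054). Without the variance trend, and with the knockdown libraries as 1 group, MTBP (0.073 in both), POLE2 (0.071 and 0.057), FBXO5 (0.069 and 0.084) and E2F5 (0.081 and 0.13) lost their call, and ATAD5 did without the trend (0.059).

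Some of these genes overlap another coding gene, and the sources used here do not say whether reads were counted by strand. Among them, on opposite strands, are MCM7 with AP4M1, TYMS with ENOSF1, FEN1 with TMEM258, and RFC4 with EIF4A2. FEN1 with FADS2 and PRIM1 with NACA overlap on the same strand, which counting by strand would not separate. PCNA, RFC3, FEN1, RRM2 and TYMS also have annotated pseudogenes with which reads could be shared, so their values are uncertain to that extent.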

How the data were processed

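Strand-specific RNA libraries of 8 DND41 cultures were sequenced, per the labels' protocols. The deposited table gives each gene symbol a signal in normalized counts, made by the authors with kallisto 0.44.0, DESeq and the build hg38, per the submitters' processing notes. For its annotation, gene summary and filters, the sources used here give nothing. Whole reads could not be recovered, since with the best step per library (0.886 to 1.15 normalized counts) 37.1% to 51.7% of low values came within 0.02 of a multiple. No test for counts was therefore used.

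The values were analysed as log2(value + 1), a scale that understates changes of low genes, for the 13885 of 18133 rows with a mean of at least 10. A linear model was fitted with limma 3.58.1 (R 4.3.3), with 3 group means, 5 residual degrees of freedom and a variance prior following the mean. Tests were two-sided and adjusted by Benjamini-Hochberg over all genes tested, with calls at adjusted p under 0.05. The contrasts were the mean of sh1 and sh3 against control, each against control, and sh1 against sh3. Tested on simulated data, the procedure fell short of the recovery set for larger changes when the noise followed the unmoderated spread. It passed narrowly after the noise was changed to the moderated spread, so true changes can be missed. Letters shared across groups did not pair libraries, with correlations of deviations from −0.062 to 0.058.

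The genes named are the 34, SIRT1, and of each further list the 3 with the smallest p among those called plus any called against its list's direction. Part of the B cell marker list is not reported here. Members and lists were chosen with earlier results of these data known. Gene coordinates are those of GENCODE 29 on GRCh38, the assembly hg38 denotes, and promoters those of RefSeq on GRCh38.p14. The alternatives tried were pseudocount, filter, scaling, variance prior, grouping, replicate block and each library left out.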

Additional observations from a re-analysis of the deposited data

Results flagged for a closer look

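The change against control differed between the hairpins for 7 of the 34 genes by the direct test of sh1 against sh3, which equals the difference of the 2 changes since the controls are shared. The log2 difference, sh1 minus sh3, was 0.63047 for CCNE1, 0.21729 for UHRF1 and 0.1858 for FEN1. It was −0.23774 for CDT1, −0.26279 for MCM10, −0.2027 for CDC6 and −0.20754 for PRIM1. No group held the 4 libraries that a check for single libraries far from the others needs.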

How the results depend on the processing

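In knockdown against control, 6 genes were higher, and the count was 9 after quantile normalization, which added MCM3, MCM7 and TYMS, 3 with a variance prior that did not follow the mean, 3 with the 6 knockdown libraries as 1 group, and 2 to 6 with 1 library left out (2 without control C). In sh1, 3 were higher, with 5 after quantile normalization, 1 without the trend and 1 to 3 with 1 library left out. In sh3, 9 were higher, with 13 after quantile normalization and 5 to 10 on leaving out 1 library, and 2 were lower, with 1 after quantile normalization, 1 without the trend, 1 with the replicate block and 0 to 2 on leaving out 1 library. In sh1 against sh3, the 3 higher became 1 without the trend and the 4 lower became 1, with 5 after quantile normalization and 1 to 4 on leaving out 1 library. The cause of these shifts was not tested. The replicate block, with the letters as pairs, gave 4 higher and 0 lower in knockdown, and 1292 genes called in all against 1768. Under the block CDC6 (adjusted p = 0.079) and CDT1 (0.080) were not called in knockdown, ORC1 (0.079) not in sh1, and PRIM1 (0.051) and UHRF1 (0.064) not in sh3, while POLE (0.040) was called in sh3. E2F5 (0.081) was not called in knockdown. The letters do not pair the libraries. Over all genes, 744 were called in knockdown without the trend, 394 with 1 group, 933 without control A and 339 without control C. No called value of a member changed sign under any alternative run, while 9 of 28 uncalled members did in knockdown, 12 of 31 in sh1, 9 of 23 in sh3 and 3 of 27 between hairpins. E2F8 and RRM2 were the 2 of 6 members called in knockdown under every alternative. With 2 controls, and 1 control when either is left out, the lone control is assumed to vary like the other groups. Median scaling moved the median of all genes in knockdown to 0.0069, and no scaling moved it by over 0.1.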
